A study of Mus musculus with 2 samples.

Results

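The Regeneration cells were 991 of the 4147 wounded cells that the authors named after clustering, in a single-cell RNA-seq study of the mouse anorectal junction, where the stratified epithelium of the anal canal meets the glandular epithelium of the rectum. They were found by their name alone, which stands beside each cell barcode in the authors' table of the wounded sample, and their transcripts were counted from the wounded matrix of unique molecular identifiers (UMIs, 1 per captured RNA molecule). The other named wounded cells were 838 Wound_Stress, 573 Basal, 1032 Suprabasal, 397 Rectum and 316 Hybrid cells, and the normal sample held 939 named cells (257 Basal, 187 Suprabasal, 432 Anal Canal and 63 Rectum). Both samples came from K17CreERT2;R26RGFP mice on a C57/BL6J background, of both sexes, in which the Krt17 promoter drives a tamoxifen-inducible Cre and a Rosa26 reporter marks the recombined cells. Every mouse had tamoxifen, the controls included, and several mice were pooled into each sample. In the wounded mice, which were 2 to 4 months old, crypts of the rectum beside the junction were stripped with hot EDTA and an electric brush, and cells were taken 1 week later. The wounded mice also had the drug METACAM before the wound. Their cells were taken longer after tamoxifen than those of the normal mice. Mice of the in vivo experiments in general were 6 to 8 weeks old, and whether this holds for the normal sample is not stated in the sources used here. Cells were dissociated with collagenase and sorted with an Epcam antibody, a surface protein of epithelial cells, and its gate also left out cells with surface proteins of leukocytes, endothelium and fibroblasts, so the sort sets which cells could appear. The study removed clusters called hair follicle, fibroblast and anal gland before it made the tables, and the 1078 wounded and 610 normal barcodes that passed its filters without a name do not carry the name of the cluster they were in. In the normal sample alone, it also filtered cells by Lgr5, Lhx2 and Tbx1 to take hair follicle cells out of the basal cluster.

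Each condition was 1 library, so no value has a replicate check, no test was run, and every interval given is an exact 95% interval that covers counting error only. A difference between the wounded and the normal sample is also a difference between 2 libraries. For each cluster, all UMIs of a gene were added up and scaled by the total UMIs of that cluster (counts per 1000000, CPM), without division by gene length, because each molecule is counted at its 3' end. The Regeneration cells held 13004220 UMIs, with a median of 12616 UMIs and 2889 genes per cell. Wound_Stress cells had a median of 8532 UMIs, and the Basal, Suprabasal, Rectum and Hybrid cells 9075, 10594, 9991 and 2390 UMIs. Regeneration cells had the lowest median share of mitochondrial UMIs of the 6 named clusters (5.91%), against 10.95% in Wound_Stress and 12.9% in Rectum cells, and the ratios limited to cells under 10% are given with the counts below. No barcode sequence was shared by the named cells of the libraries. The clusters were formed on these same genes, so ratios between them describe the clusters and test nothing.

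Stratified epithelia answer a wound in steps. Keratinocytes at the edge first switch on immediate-early genes, the AP-1, EGR and NR4A transcription factors that need no new protein to be transcribed, together with the phosphatases and decay factors that shut the same signals off. Alarmins such as Il33, which is kept in the nucleus and released from damaged cells, and chemokines and serum amyloids then call in leukocytes, and edge keratinocytes later take on Krt6, Krt16 and Krt17 and migrate. The same immediate-early genes are also known to rise while tissue is being dissociated into single cells.

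The marker genes of the name were Il33, Saa3, Junb and Egr4. On GRCm38, Il33 lies at chr19:29925114-29960718 on the plus strand, Saa3 at chr7:46711998-46715700, Junb at chr8:84974484-84978718 and Egr4 at chr6:85511121-85513589, the last 3 on the minus strand, and all are protein coding. Egr4 and the chemokines Cxcl1, Cxcl2 and Cxcl10 were among the 10 genes with the largest ratio over Wound_Stress and held an NF-kB match upstream. The 250 bases before their starts are shown, from RefSeq on GRCm38.p6, 5' to 3' on the strand of the gene. Promoters of other leading genes and markers are not shown. Capitals mark matches on either strand to the NF-kB motif and to the AP-1 motif TGANTCA. Overlapping matches run together. The windows are chr6:85513590-85513839 on the minus strand for Egr4, chr5:90890995-90891244 and chr5:90903649-90903898 on the plus strand for Cxcl1 and Cxcl2, and chr5:92348890-92349139 on the minus strand for Cxcl10.
Egr4: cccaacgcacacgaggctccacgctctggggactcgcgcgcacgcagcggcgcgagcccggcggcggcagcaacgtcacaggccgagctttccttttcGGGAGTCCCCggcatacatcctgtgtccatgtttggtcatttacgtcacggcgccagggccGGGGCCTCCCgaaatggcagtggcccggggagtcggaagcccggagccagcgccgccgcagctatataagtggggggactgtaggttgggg
Cxcl1: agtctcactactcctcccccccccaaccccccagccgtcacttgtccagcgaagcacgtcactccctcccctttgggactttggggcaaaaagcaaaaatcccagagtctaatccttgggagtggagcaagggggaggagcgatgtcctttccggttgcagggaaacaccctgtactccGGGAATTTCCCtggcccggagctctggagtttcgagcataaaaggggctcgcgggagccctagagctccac
Cxcl2: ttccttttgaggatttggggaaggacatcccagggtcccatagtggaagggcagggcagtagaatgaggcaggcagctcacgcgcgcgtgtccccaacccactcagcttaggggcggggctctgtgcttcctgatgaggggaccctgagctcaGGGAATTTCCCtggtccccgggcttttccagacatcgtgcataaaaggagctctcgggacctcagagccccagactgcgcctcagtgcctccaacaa
Cxcl10: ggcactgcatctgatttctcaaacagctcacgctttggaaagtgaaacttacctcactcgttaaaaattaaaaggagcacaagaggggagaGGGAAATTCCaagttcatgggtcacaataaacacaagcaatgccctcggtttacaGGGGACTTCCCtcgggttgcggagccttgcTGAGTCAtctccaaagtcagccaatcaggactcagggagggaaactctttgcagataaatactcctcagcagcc
Cxcl1 and Cxcl2, neighbours on chromosome 5, carry the same run of capitals, which begins 71 bases before the start of Cxcl1 and 97 before that of Cxcl2. Cxcl10 has an AP-1 match 74 bases before its start beside its NF-kB matches. Of the 13 genes that are markers or led over Wound_Stress, 11 had a promoter in the RefSeq table (300 bases each, 250 before to 50 after the start), and 5 of them (45.5%) held an NF-kB match, against 9.55% of all 27025 genes with a promoter. Nr4a1 was also among the 5, while Atf3, Nr4a3, Saa2, Saa3, Junb and Il33 held none. Only 1 of the 11, Cxcl10, held an AP-1 match (9.09%, against 8.97% of all genes). The immediate-early genes described below had a promoter for 38 of 45. Of these, 26.3% held the NF-kB motif, 34.2% the EGR motif GCGNGGGCG (6.27% of all genes), 13.2% the CRE TGACGTCA (2.03%), 7.89% the CArG box (1.81%) and 7.89% the AP-1 motif (8.97%). Their median GC content was 62.0%, against 52.7% over all promoters, and the EGR motif is itself rich in GC. A match only says that these letters are in the window.

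Il33 was high in both wound clusters and low in the rest. It reached 134 CPM in Regeneration (127.7 to 140.4) and 154 CPM in Wound_Stress cells (145.1 to 163.0). In the other clusters it was at 6.45 CPM in Basal, 10.1 in Suprabasal, 16.1 in Rectum and 20.9 in Hybrid cells. Over Wound_Stress, Regeneration cells were therefore lower by a small amount (log2 ratio -0.20, from -0.31 to -0.09), and over the other 4 clusters together the log2 ratio was 3.61. So Il33 set the pair of wound clusters apart from the rest and differed little between them.

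Saa3, an acute-phase serum amyloid, was nearly restricted in the wounded library to Regeneration cells, but to few of them. Its level was 27.3 CPM in Regeneration (24.5 to 30.3), 1.47 in Wound_Stress and 2.02 in Hybrid cells, and it had 0 UMIs in the Basal, Suprabasal and Rectum cells. The 355 Saa3 UMIs came from 37 cells (3.73%), and the 10 cells with most UMIs held 71.5% of them, the highest with 58. The log2 ratio was 4.21 over Wound_Stress and 7.70 over the other 4 clusters (6.14 to 9.99), where 3 UMIs were counted.

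Junb, a subunit of the AP-1 transcription factor, was the marker found in nearly every Regeneration cell. It stood at 1091 CPM in Regeneration (1073 to 1109), followed by Hybrid with 295, Suprabasal with 254, Rectum with 161, Basal with 106 and Wound_Stress with 76.9 CPM. Each of these neighbours in the order had intervals that did not overlap. Wound_Stress, the cluster most like Regeneration in its whole profile, was at the other end of the order, with a log2 ratio of 3.83. Junb had at least 1 UMI in 97.2% of Regeneration cells.

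Egr4, a zinc finger factor of the EGR family, was at 47.1 CPM in Regeneration cells (43.4 to 50.9). It reached 4.05 CPM in Hybrid and 0.67 in Wound_Stress cells, with 2 UMIs in Basal, 3 in Suprabasal and 0 in Rectum cells. The log2 ratio was 6.13 over Wound_Stress, where 5 UMIs were counted. In Regeneration, 162 cells held a UMI of Egr4 and the 10 cells with most held 30.1% of them.

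Since Regeneration cells were deeper, cells were thinned at random to 2000 UMIs before the share with at least 1 UMI was taken, which left 986 Regeneration, 818 Wound_Stress and 354 Rectum cells. It also left only 184 of the 316 Hybrid cells, so thinned values of Hybrid describe the deeper cells of that cluster. Il33 was then found in 19.2% of Regeneration cells (16.8 to 21.8%), against 23.2% of Wound_Stress and 3.95% of Rectum cells. Junb was found in 76.8%, 11.7% and 26.8% of these cells. Egr4 was in 5.68% of Regeneration and 0.24% of Wound_Stress cells, and Saa3 in 2.23% and 0.12%. Among Rectum cells, 0 of 354 held a UMI of Egr4 or Saa3, for which the upper end of the interval is 1.04% of cells with a UMI at this depth. Without thinning, Il33 was in 53.9%, Junb in 97.2%, Egr4 in 16.3% and Saa3 in 3.73% of Regeneration cells.

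**Figure D1:**
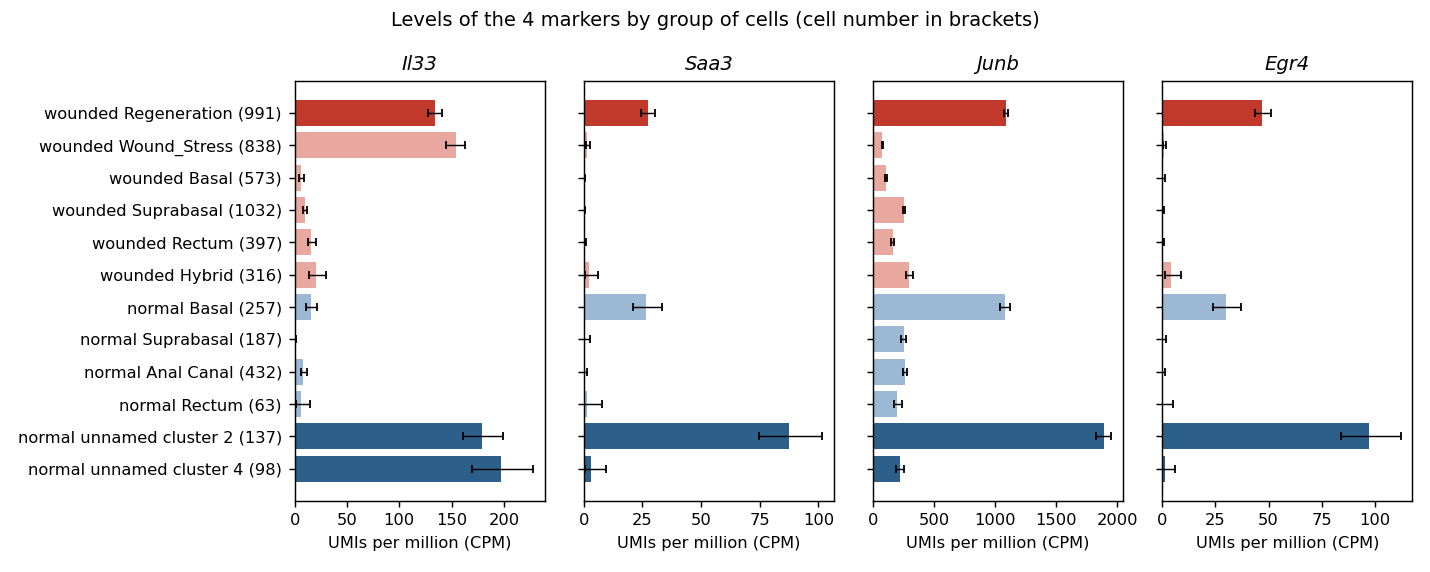
Levels of the 4 marker genes in CPM in the named clusters of the wounded and the normal library and in 2 clusters of normal cells without a name that are described at the end, as bars with exact 95% Poisson intervals. Il33 is high in both wound clusters (134 and 154 CPM), while Saa3, Junb and Egr4 are higher in Regeneration than in any other wounded cluster, and normal Basal cells reach 1080 CPM of Junb.

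Among 9162 genes with at least 100 UMIs in the Regeneration and Wound_Stress cells together, 447 were at least 2-fold higher in Regeneration (4.88%) and 155 at least 2-fold lower (1.69%). The median log2 ratio over all tested genes was -0.12. On the whole numbers behind the authors' log values the balance was more one-sided, with 600 genes higher and 60 lower (90.9% of the differing genes higher, against 74.3% on the UMI counts) and a median of 0.09. The 10 genes with the largest ratio were Nr4a3, Atf3, Fosl1, Egr4, Cxcl1, Cxcl2, Arc, Nr4a1, Saa2 and Cxcl10. Of these, Nr4a3, Atf3, Fosl1, Egr4, Arc and Nr4a1 are immediate-early genes, Cxcl1, Cxcl2 and Cxcl10 are chemokines and Saa2 is a serum amyloid. Atf3, a stress-induced factor that pairs with Jun proteins, went from 14.5 CPM in Wound_Stress to 1269 CPM in Regeneration cells (log2 ratio 6.45, from 6.18 to 6.74). Nr4a3, an orphan nuclear receptor, had 712 UMIs in Regeneration and 4 in Wound_Stress cells (54.8 against 0.54 CPM). The Fos-like gene Fosl1 had 440 against 3 UMIs (log2 ratio 6.39, from 4.84 to 8.68).

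Genes lower in Regeneration than in Wound_Stress were more often noncoding. Of the 155, 25 are annotated as lincRNA or processed transcripts (16.1%), against 1.40% of the 9159 tested genes with an annotation and 9 of the 447 higher ones (2.01%). Of the 10 with the smallest ratio, 7 are annotated as lincRNA or processed transcripts (2900052L18Rik, 4632404H12Rik, AI480526, 5930430L01Rik, Gm15411, 2900005J15Rik and Snhg20), and the protein-coding ones were Gm3448, Ly6g6c and Sept1. 5930430L01Rik, the one with most UMIs, was at 84.2 CPM in Wound_Stress and 24.1 CPM in Regeneration cells (log2 ratio -1.81). When both clusters were limited to cells under 10% mitochondrial UMIs, which kept 748 Regeneration and 385 Wound_Stress cells, 8112 genes were tested, and 423 were at least 2-fold higher and 71 lower. Of these, 380 and 58 were among the 447 and 155 of all cells.

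**Figure D2:**
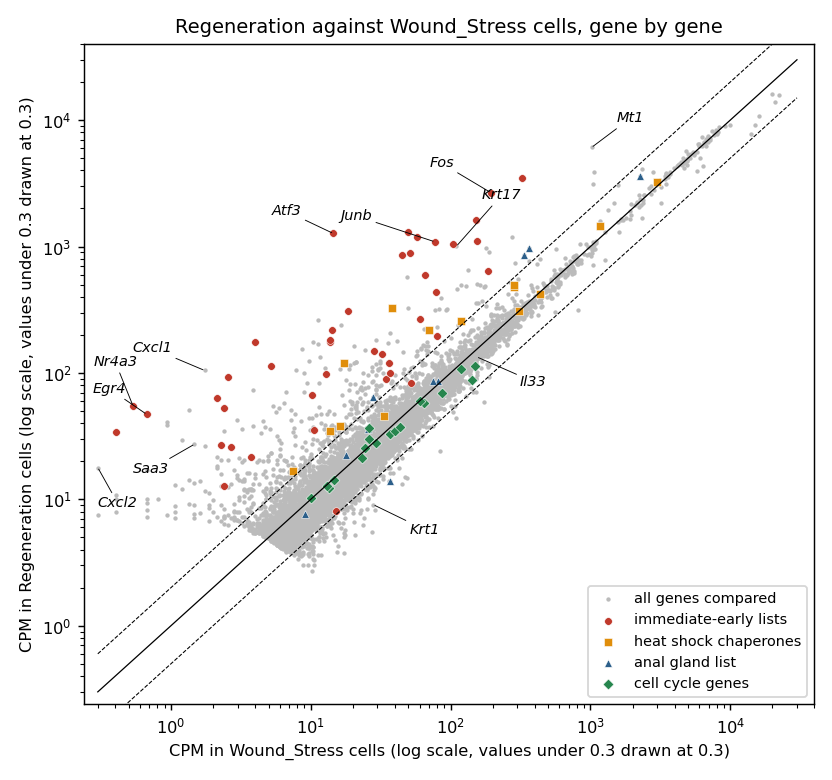
Each point is a gene with at least 100 UMIs, with its level in Regeneration against its level in Wound_Stress cells (CPM, both axes log, values under 0.3 drawn at 0.3); lines mark equal levels and 2-fold differences, and colours mark the immediate-early, heat shock, gland and cell cycle lists. The 40 immediate-early genes above the upper line lie apart from the bulk of the 9162 genes, while Il33 sits close to the line of equal levels.

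The immediate-early genes were higher together in the Regeneration cluster. Their lists were chosen with earlier results of these data known and include the markers Junb and Egr4, so the counts are not independent evidence. Over Wound_Stress, 40 of 42 tested members of 3 lists were at least 2-fold higher (4.88% of all genes) and 0 were 2-fold lower (1.69%), with 34 at least 4-fold and 25 at least 8-fold higher, and the median log2 ratio was 3.43 against -0.12 for all genes. Nr4a2, Batf and Dusp10 had too few UMIs to be tested. The count was 40 of 42 under each other way of scaling and each subset of cells tried. Against the single clusters, 40 of 42 were at least 2-fold higher than in Basal (10.5% of all genes), 38 than in Suprabasal (8.79%), 39 than in Rectum (13.1%) and 36 than in Hybrid cells (8.53%), while 0 were 2-fold lower than in any of these (9.3%, 8.82%, 17.6% and 10.7% of all genes). Over the 4 together, 39 of 43 were higher (6.04% of 11084 genes) and 0 lower (15.1%).

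All 10 tested AP-1 factors were higher over Wound_Stress (4.88% of all genes), with a median log2 ratio of 3.67, and all 10 over the other 4 clusters (6.04%). Fos, the partner of Jun proteins in AP-1, was at 2671 CPM in Regeneration and at 194 CPM in Wound_Stress cells, and at 102 in Basal, 552 in Suprabasal, 401 in Rectum and 523 in Hybrid cells. Jun reached 3488 CPM against 324 CPM in Wound_Stress, Fosb 849.9 against 45.03 CPM, and Jund, which is less inducible than the other Jun genes, 1103 against 155 CPM. Fosl2 had the smallest difference of the list (141 against 32.2 CPM). Thus every tested AP-1 gene, from the most to the least inducible, stood in the same direction.

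The 14 tested EGR, NR4A and related factors were all higher over Wound_Stress too (4.88% of all genes), with a median log2 ratio of 4.23, and 11 of 14 were higher over the other 4 clusters (6.04%). Egr1, the best known member of the EGR family, was at 1182 CPM in Regeneration against 57.9 CPM in Wound_Stress cells, and Nr4a1 at 175 against 4.02 CPM. Ier3, a short-lived stress protein, was at 1303 against 49.5 CPM. Myc, which drives growth, had the smallest ratio of this list (99.5 against 36.6 CPM, log2 ratio 1.44). Egr2 and Klf4 did not separate Regeneration from all clusters, since Suprabasal cells held 145 CPM of Egr2 against 150 CPM in Regeneration, and Rectum cells 190 CPM of Klf4 against 175 CPM.

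Of the feedback genes, which encode phosphatases, RNA decay factors and inhibitors that end these signals, 16 of 18 were higher over Wound_Stress (4.88% of all genes) and 0 lower (1.69%), and the median log2 ratio was 2.82. Against the other 4 clusters 18 of 19 were higher (6.04%). Dusp5, a nuclear phosphatase of ERK, had 63.9 CPM in Regeneration and 2.14 CPM in Wound_Stress cells. Socs3, the inhibitor of cytokine signalling through STAT3, had 182 against 13.8 CPM, and Zfp36, which speeds the decay of cytokine messages, 309 against 18.5 CPM. Nfkbia and Tnfaip3, inhibitors of NF-kB, had 599 against 65.4 CPM and 26.1 against 2.68 CPM. The exceptions were Dusp4 (83.5 against 51.9 CPM) and Spry2, an inhibitor of growth factor signalling, which was lower in Regeneration at 8.07 against 15.3 CPM (log2 ratio -0.92). Dusp1 was higher in Suprabasal (278 CPM) than in Regeneration cells (220 CPM).

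**Figure D3:**
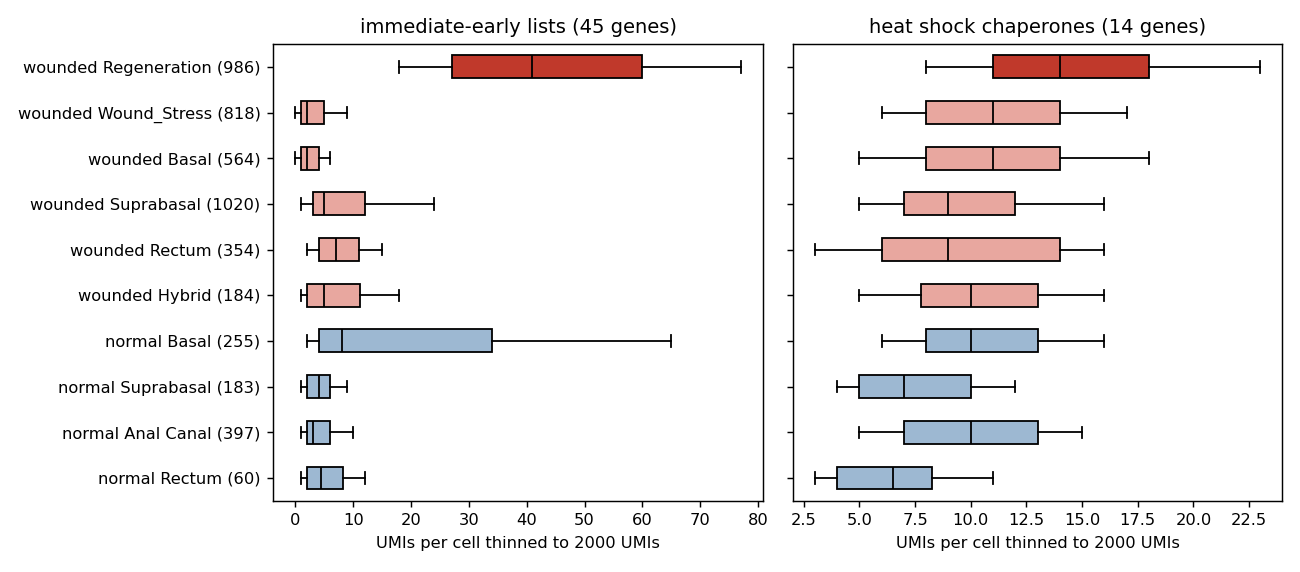
UMIs per cell summed over the immediate-early lists (left) and over 14 heat shock chaperones (right), after thinning each cell to 2000 UMIs, for the named clusters (184 of the 316 Hybrid cells were deep enough); boxes are quartiles with the median, whiskers the 10th and 90th percentiles. The Regeneration median of 41 immediate-early UMIs stands above the 90th percentiles of the other 5 wounded clusters, while the chaperone sums overlap.

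The difference was found in most Regeneration cells and not in a few. After thinning, the median cell held 41 UMIs of the immediate-early lists, with 18 and 77 at the 10th and 90th percentiles. Wound_Stress and Basal cells had a median of 2, Suprabasal and Hybrid cells 5, and Rectum cells 7. The 90th percentile of Wound_Stress was 9 UMIs, and 96.2% of Regeneration cells lay above it, while 0% of Wound_Stress cells lay above the Regeneration median. So the distributions of these 2 clusters hardly overlapped. Suprabasal cells overlapped more with Regeneration, with up to 71 UMIs in a cell.

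The heat shock chaperones, which rise with heat or protein damage, did not move as one. Of 14 tested, 7 were at least 2-fold higher over Wound_Stress (4.88% of all genes) and 0 lower, with a median log2 ratio of 0.96, while 4 were higher and 1 lower over the other 4 clusters (6.04% and 15.1%), and the summed UMIs per thinned cell overlapped (median 14 in Regeneration, 11 in Wound_Stress). Dnajb1, a co-chaperone of Hsp70, was at 327 CPM against 37.8 CPM, and Hspa1a, the inducible Hsp70, at 218 against 70.0 CPM. Hspb1, a small heat shock protein of differentiating keratinocytes, was at 120 CPM in Regeneration and 17.3 in Wound_Stress but at 502 in Basal and 512 CPM in Suprabasal cells. Across the 986 thinned Regeneration cells, which share 1 library and 1 dissociation, the Spearman correlation between the immediate-early and the chaperone sums was 0.07.

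Chemokines were the next group to set the 2 wound clusters apart. Over Wound_Stress, 6 of 8 tested chemokines were at least 2-fold higher (4.88% of all genes) and 0 lower (median log2 ratio 2.94). Cxcl1, an attractant of neutrophils, was at 105 CPM in Regeneration, 1.74 in Wound_Stress, 0.70 in Basal, 3.11 in Suprabasal, 3.89 in Rectum and 11.5 CPM in Hybrid cells. Cxcl2, which acts on the same receptor, had 232 UMIs (17.8 CPM) in Regeneration and 0 in Wound_Stress cells. With a floor of 3 UMIs in place of the 0 its log2 ratio was 5.47, and the lower end of its interval was 5.16. Cxcl10, an interferon-inducible attractant of T cells, was at 50.8 against 1.34 CPM. These are the genes whose promoters are printed above. Cxcl14 and Cxcl16 were above Wound_Stress (41.6 against 8.58 CPM and 13.1 against 1.07 CPM), but Cxcl14 was highest in Hybrid cells (293 CPM) and Cxcl16 in Suprabasal cells (33.0 CPM). Over the other 4 clusters 3 of 10 tested chemokines were at least 2-fold higher (6.04%) and 3 lower (15.1%), the lower ones being Ccl28, Cxcl14 and Cxcl5. Cxcl5, another neutrophil attractant, was at 242 CPM in Basal and at 0.15 CPM in Regeneration cells. Ccl20, at 2.15 CPM in Regeneration cells, had too few UMIs to be tested over Wound_Stress or over the other 4 clusters.

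Among the serum amyloids and antimicrobial proteins, 6 of 10 tested were higher over Wound_Stress (4.88% of all genes) and 0 lower (1.69%), while over the other 4 clusters 6 of 11 were higher (6.04%) and 4 lower (15.1%). The marker Saa3 is itself in this list and among the higher genes of both counts. Saa2 followed Saa3, with 38.9 CPM in Regeneration, 0.94 in Wound_Stress, 1.35 in Hybrid and at most 0.26 CPM in the other clusters. Saa1 did not, since it was at 83.6 CPM in Regeneration but at 173 CPM in Rectum cells. Slpi, an inhibitor of leukocyte proteases, was at 238 CPM in Regeneration and 16.5 in Wound_Stress but at 1229 CPM in Suprabasal cells. Lcn2, an iron-sequestering protein of inflamed epithelia, was high in both wound clusters (1598 and 1172 CPM) and at 725 CPM in Suprabasal cells. The alarm proteins S100a8 and S100a9 were at 5.31 and 0.38 CPM in Regeneration cells.

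Few cytokines beside Il33 had enough UMIs to be tested. In the IL-1 family and alarmin list, Il36a, Il36b, Il36g and Il36rn were not among the features under these symbols and were not examined. Of the 12 members of the IL-1 family and alarmin list among the features, 3 could be tested over Wound_Stress and 0 differed by 2-fold (4.88% of all genes were higher and 1.69% lower), and Il1rn, the receptor antagonist, was at 4.69 CPM in Regeneration against 29.8 CPM in Basal cells. Of the 16 other cytokines and receptors, 6 had enough UMIs to be tested over Wound_Stress. Of these, Tnfrsf12a, the receptor of the cytokine TWEAK, was higher (122 against 20.9 CPM), and so was Il4ra (11.2 against 1.88 CPM). Over the other 4 clusters 3 of 7 of this list were higher (6.04%) and 1 lower (15.1%), Il20rb. Il4ra did not differ by 2-fold there (log2 ratio -0.12). In the EGF family, 1 of 4 tested genes was higher over Wound_Stress (4.88% of all genes), Hbegf, a growth factor of wound-edge keratinocytes (35.8 against 3.22 CPM). Of 8 EGF family genes tested over the other 4 clusters 0 were higher and 5 lower (15.1%). Of the IL-1 family and alarmin list 1 of 7, the marker Il33 itself, was higher (6.04%) and 3 lower. Hbegf was itself lower in Regeneration than in Basal (43.5 CPM), Suprabasal (74.4 CPM) and Rectum cells (60.8 CPM).

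The basal keratin Krt14 and the wound keratin Krt17 stood in Regeneration cells at levels between those of the other named clusters, and Krt6a and Krt6b were low. Krt14, a keratin of basal layers, was at 3912 CPM, against 2815 in Wound_Stress, 8434 in Basal, 5594 in Suprabasal, 340 in Rectum and 2061 CPM in Hybrid cells. Trp63, the factor that keeps stratified epithelia, was at 222 CPM in Regeneration and in Wound_Stress cells alike, and at 14.8 CPM in Rectum cells. Of 15 tested basal layer genes, 2 were at least 2-fold higher than in Wound_Stress (4.88% of all genes), and 0 differed by 2-fold from the other 4 clusters together. Taken singly, 7 were lower than in Basal cells (9.3% of all genes) and 8 were higher than in Rectum cells (13.1%). The wound keratins were higher in Regeneration than in Wound_Stress (3 of 3 tested, against 4.88% of all genes) but lower than in the other 4 clusters together (4 of 4, against 15.1% of all genes). Krt17, the marker of the junction whose promoter drives the Cre, was at 1004 CPM in Regeneration, 110 in Wound_Stress, 381 in Basal, 7100 in Suprabasal, 134 in Rectum and 1148 CPM in Hybrid cells. Krt6a was at 38.8 CPM in Regeneration against 724 in Basal and 1034 CPM in Suprabasal cells, and Krt6b had 1 UMI.

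Differentiation genes of the upper layers and of the rectum were lower than in the clusters that carry them. Over the other 4 clusters, 17 of 18 tested suprabasal genes and 16 of 16 rectal genes were at least 2-fold lower (15.1% of all genes) and 0 higher. Since these clusters include the Rectum cells, the rectal genes were also taken singly, and over Basal cells 2 of 13 were lower (9.3%) and 1 higher, and over Suprabasal cells 2 of 13 lower (8.82%). Over Hybrid cells 12 of 13 rectal genes were lower (10.7%). Over Wound_Stress 1 of 13 rectal genes was higher (4.88%) and 0 lower (1.69%). There 2 of 11 suprabasal genes were higher and 3 lower, the lower ones being Krt1, Krt10 and Krt13. Over Rectum cells 5 of 12 suprabasal genes were higher (13.1%) and 5 lower (17.6%). Krt10, a keratin of cornifying layers, was at 17.8 CPM in Regeneration and 42.5 in Wound_Stress against 1987 CPM in Basal cells. The latter value also shows that the deposited name Basal covers cells with a high level of a suprabasal keratin. Krt8, the glandular keratin, was at 54.1 CPM against 2386 CPM in Rectum cells, and Epcam, the antigen of the sort, at 205 against 1822 CPM. The 10 leading genes lower than in the other 4 clusters were Sprr2d, Krt6b and Cnfn, of stratified epithelia, the chemokines Ppbp and Cxcl5, Ltf, which encodes lactoferrin, the hormone genes Gcg and Insl5 of enteroendocrine cells, and Psca and Mal.

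Among 10846 genes with enough UMIs in both comparisons, 609 were at least 2-fold higher in Regeneration over the other 4 clusters and 572 in Wound_Stress. Of the 609, 367 (60.3%) were higher in both. The genes that lead over the other 4 clusters were likewise in part shared with Wound_Stress. They were Saa3, Saa2, Egr4, Ankrd31, Acot5, Wscd2, Fosl1, Cxcl1, Nr4a3 and Slc4a8. Ankrd31 had 8.61 CPM in Regeneration and 14.5 CPM in Wound_Stress cells, and Slc4a8 8.07 against 12.6 CPM, so these were higher in Wound_Stress. Acot5, an acyl-CoA thioesterase, had 21.99 and 4.96 CPM, and Wscd2 21.5 and 11.8 CPM. Each of these 4 genes was at 2.70 CPM or less in the other clusters.

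Genes of migration and matrix were higher in Regeneration than in Wound_Stress for 3 of 6 tested (4.88% of all genes). Thbs1, a matrix glycoprotein, was at 94.2 CPM against 2.55 CPM in Wound_Stress and at most 28.3 CPM in the other clusters. Timp3, an inhibitor of metalloproteases, was at 324 against 49.7 CPM. The collagenases and stromelysins Mmp1b, Mmp3, Mmp9, Mmp10 and Mmp13 had too few UMIs to be tested. In the list, 3 of 11 genes were higher over the other 4 clusters (6.04%) and 4 lower (15.1%). In the regenerative epithelium and YAP target list, 4 of 9 tested genes were higher over Wound_Stress, among them Ccn1 (184 against 29.4 CPM) and Sox9 (240 against 113 CPM). Over the other 4 clusters 2 of 13 were higher (6.04% of all genes) and 8 lower (15.1%), and Ly6a, Clu, Anxa1 and Krt7, genes of the fetal-like state of a repairing gut, were among the lower ones. Over Rectum cells 6 of 13 were higher (13.1%) and 6 lower (17.6%), and Anxa1 was not among the lower ones. Over Hybrid cells 3 of 10 were higher (8.53%) and 3 lower (10.7%). Against Basal cells 3 of 13 were higher (10.5%) and 8 lower (9.3%), and against Suprabasal cells 2 higher (8.79%) and 6 lower (8.82%). Ly6a was at 8.84 CPM in Regeneration against 609 in Basal and 238 CPM in Rectum cells.

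Several stress and signal groups had some members higher over Wound_Stress, where 4.88% of all genes were, and 0 lower. These were 4 of 11 tested genes of the unfolded protein and integrated stress response, with Atf4 at 316 against 77.6 CPM and Hspa5, the chaperone of the endoplasmic reticulum, at 496 against 118 CPM. In the hypoxia and glycolysis list 4 of 12 were higher, with Adm at 16.9 against 0.67 CPM. Among oxidant and thiol defence genes 3 of 10 were higher, and the metallothioneins Mt1 and Mt2, which bind zinc and copper, were at 6081 against 1020 CPM and 1200 against 277 CPM. These lists went both ways over the other 4 clusters, where 6.04% of all genes were higher and 15.1% lower. There 4 of 12 unfolded protein genes were higher and 2 lower, 1 of 12 hypoxia genes higher and 1 lower, and 4 of 12 oxidant defence genes higher and 3 lower.

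TGF-beta, BMP and activin genes were higher over Wound_Stress for 5 of 10 (4.88% of all genes), with Id1, a target of BMP signals, at 461 against 111 CPM and Id3 at 110 against 12.7 CPM. Of the interferon response genes 3 of 5 were higher, and Irf1 was at 82.8 against 9.38 CPM. Set against the other 4 clusters, 2 of 8 interferon genes were higher (6.04%) and 3 lower (15.1%), and 4 of 12 TGF-beta, BMP and activin genes were higher and 1 lower. Of the growth arrest and p53 targets 1 of 7 was higher over Wound_Stress, Cdkn1a, the inhibitor of cyclin-dependent kinases, at 116 against 19.2 CPM. Of the Notch and Wnt genes 0 of 11, and of the cell cycle genes 0 of 18, were at least 2-fold apart from Wound_Stress, where few of all genes were either (4.88% higher and 1.69% lower). Against other clusters some did differ, as 6 of 13 Notch and Wnt genes were lower than in Basal cells (9.3%), 6 of 10 were higher than in Rectum cells (13.1%), 5 of 18 cell cycle genes were lower than in Hybrid cells (10.7%), and 3 of 18 were higher than in Suprabasal cells (8.79%). The proliferation gene Mki67 was at 114 CPM in Regeneration, 149 in Wound_Stress, 162 in Basal, 94.8 in Suprabasal, 165 in Rectum and 262 CPM in Hybrid cells. The median of the cell cycle list was -0.13 on the log2 scale, 0.21 on the authors' whole numbers and -0.69 with cells weighted equally, so its sign depended on the scaling.

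**Figure D4:**
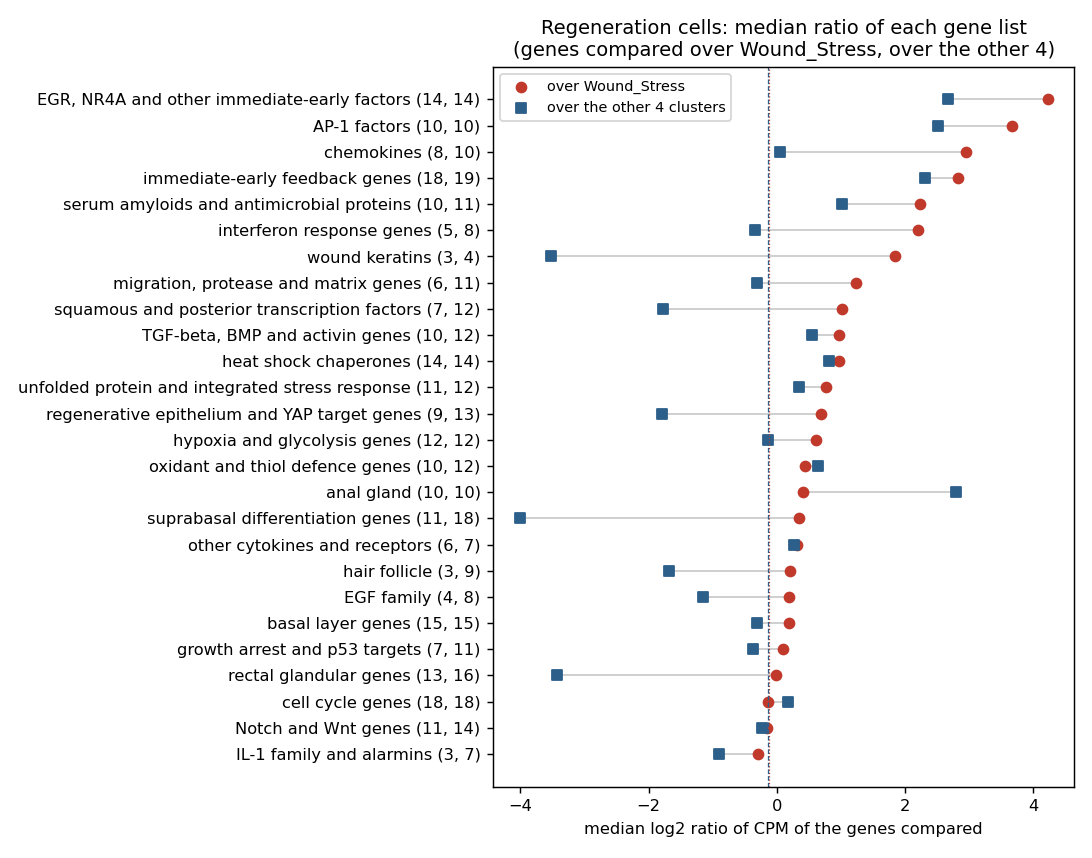
Median log2 ratio of each gene list in Regeneration over Wound_Stress and over the other 4 clusters; numbers in brackets are the genes compared in each contrast, and dashed lines mark the medians of all genes (-0.12 and -0.15). The immediate-early lists lie far to the right in both contrasts, and the wound keratins lie on opposite sides.

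Lipid genes of the anal gland were high in the Regeneration cells although the cluster called anal gland had been removed. The gland list was taken from earlier work on these samples, so its direction is not independent evidence. Over the other 4 clusters, 9 of 10 members were at least 2-fold higher (6.04% of all genes) and 0 lower, with a median log2 ratio of 2.80 against -0.15 for all genes. This became 5 of 8 among cells with 5000 to 15000 UMIs. Plin2, which coats lipid droplets, was at 976 CPM in Regeneration, 365 in Wound_Stress, 36.6 in Basal, 99.4 in Suprabasal, 97.8 in Rectum and 126 CPM in Hybrid cells. Scd1, a desaturase of fatty acids, was at 861 against 337 CPM in Wound_Stress and at most 138 CPM elsewhere. Fabp5, a fatty acid binding protein of keratinocytes, was the exception, at 3637 CPM in Regeneration and 7444 CPM in Basal cells. Over Wound_Stress 3 of 10 members were higher (4.88% of all genes) and 1 lower (1.69%), Mc5r, a melanocortin receptor of sebocytes (14.1 against 37.1 CPM). With cells weighted equally, 1 was higher and 1 lower and the median turned from 0.41 to -0.22, so the gland list did not separate the wound clusters in a stable direction.

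Markers of the cell types that the gate left out (leukocytes, endothelium and fibroblasts) were scarce, and lists of other cell types are given beside them. The immune cells list summed to 1.85 CPM in Regeneration and 1.47 CPM in Wound_Stress cells, with Cd68 the most abundant at 1.15 CPM and 8 of its 14 genes at 0 in Regeneration, among them Trac, Lyz2 and Csf1r. Ptprc, which marks all leukocytes, had 1 UMI in the 991 cells. The fibroblasts list summed to 26.7 against 6.84 CPM, with Dcn the most abundant at 9.15 CPM, and the smooth muscle list to 32.8 against 10.1 CPM, with Tagln at 15.6 CPM. The endothelium list was at 2.54 against 1.47 CPM (Flt1 1.999 CPM, with Kdr, Lyve1 and Prox1 at 0), and that of melanocytes and Merkel cells at 1.08 against 1.07 CPM. The hair follicle list was at 377 against 316 CPM, nearly all of it Krt79 at 345 CPM, a keratin of the upper follicle and of gland ducts, and the rectal glandular genes at 448 against 348 CPM, with Epcam at 205 CPM. The fibroblast and smooth muscle sums were thus higher than in Wound_Stress, and their part in the ratios was not tested.

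Among themselves, the Regeneration cells fell into 5 subclusters, which were left unnamed and are described by their leading genes. All had the immediate-early genes, with thinned medians of 44, 47, 35, 38 and 34 UMIs in subclusters 1 to 5, each above the 90th percentile of Wound_Stress cells.

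Subcluster 1 (368 cells, 37.1%) was led by Saa3, Tgm2, Col4a1, Gpnmb and Rtl8b. It held 288 of the 355 Saa3 UMIs (65.0 CPM against 7.82 CPM in the other Regeneration cells) and the highest level of Il33, 210 CPM, where the other subclusters had 65.7 to 114 CPM. Col4a1, a chain of basement membrane collagen, was at 98.8 against 34.3 CPM. Il33 and Saa3 thus peaked in the same subcluster.

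Subcluster 2 (239 cells, 24.1%) was led by Crabp2, Cst6, Defb6, Alox12e and Krt6a, genes of stratified differentiation and defence. Krt17 was at 2181 CPM here, Krt6a at 153 and Cst6, an inhibitor of cysteine proteases in cornifying layers, at 1241 CPM. Klf4, a factor of terminal differentiation, was at 474 CPM and Dusp1 at 610 CPM, against 39.3 and 54.2 CPM in subcluster 3. Saa3 had 0 UMIs in subcluster 2.

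Subcluster 3 (180 cells, 18.2%) was led by Gpd1, Zfp750, Acer1, Far2 and Cidea, most of them enzymes or coats of lipid stores. Plin2 was at 1759 CPM, Scd1 at 2393 CPM and Fabp5 at 8616 CPM, while Krt5 and Krt17 were at 43.3 and 109 CPM. The gland list summed to a median of 21.5 UMIs per thinned cell, against 1 in subcluster 2. In the wounded barcodes without a name, 344 formed a cluster with higher Scd1 (2983 CPM) and Fabp5 (14846 CPM) but with Junb at 17.7 CPM and Fos at 66.5 CPM. Another 77 formed a cluster whose leading genes included Gpd1, Acer1 and Far2, as in subcluster 3, with Scd1 at 2695 CPM, Fabp5 at 14214 CPM, Junb at 204 CPM and Fos at 1190.0 CPM.

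Subcluster 4 (119 cells, 12.01%) was led by Kif2c, Pimreg, Aurkb, Ube2c and Nusap1, genes of mitosis, with Mki67 at 612 CPM against 44.0 CPM or less in the others. These cells were the deepest (median 17395 UMIs). Subcluster 5 (85 cells, 8.58%) was led by Lypd8, Dmbt1, Muc13, Myo15b and Phgr1, genes of the intestinal surface. Lypd8 was at 329 CPM there, against 13.6 CPM in the other Regeneration cells and 3528 CPM in Rectum cells. The same cells had a median of 13.8% mitochondrial UMIs, where the other subclusters had at most 6.16%, and still held Trp63 at 134 CPM. No doublet caller was run, and whether doublets, free RNA or damaged cells contribute to subclusters 4 and 5 was not tested. Without subcluster 5, the genes higher and lower over Wound_Stress numbered 447 and 167.

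**Figure D5:**
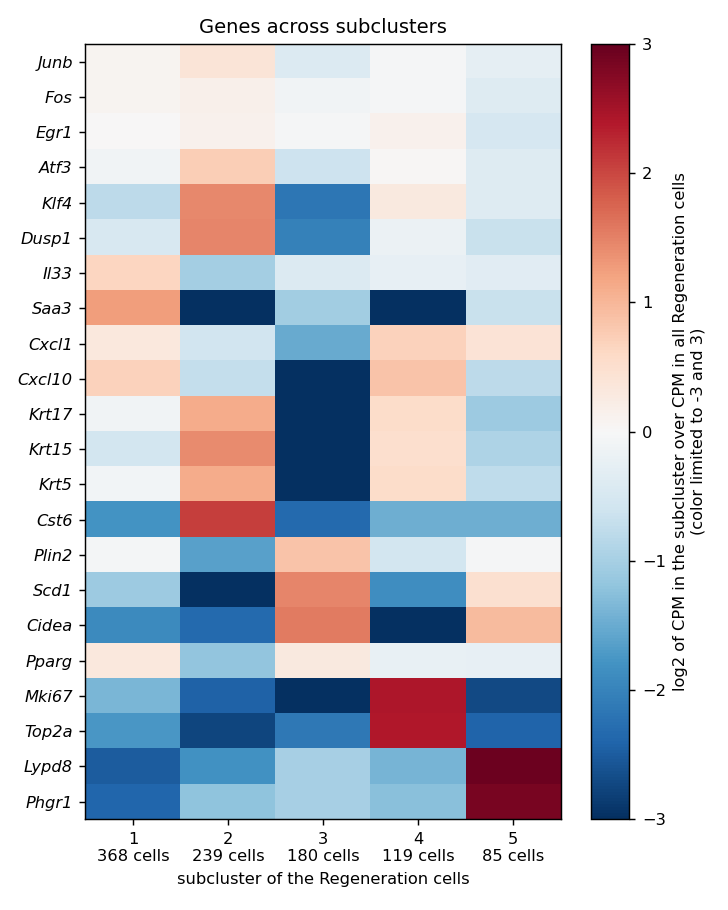
Colour gives the log2 ratio of the level (CPM) of a gene in each of the 5 subclusters to its level in all Regeneration cells. Junb, Fos and Egr1 stay near 0, whereas Saa3 peaks in subcluster 1, Krt17 in 2, Scd1 in 3, Mki67 in 4 and Lypd8 in 5.

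Across the 986 thinned cells, which share a library, the immediate-early sum went with Mt1 and Mt2 (Spearman 0.36) and with the wound keratins (0.21), and against the gland list (-0.20). With Il33 it had a correlation of 0.02. The gland list and the wound keratins went in opposite directions (-0.39), as the contrast of subclusters 2 and 3 also shows.

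The normal library has no cells named Regeneration, yet it held the same genes. Among its named cells, Basal cells were at 1080 CPM of Junb (1041 to 1120) and 26.6 CPM of Saa3, close to the 1091 and 27.3 CPM of Regeneration cells, but at 29.9 CPM of Egr4 (23.8 to 37.2), under the 47.1 CPM there, and at 15.5 CPM of Il33. The Saa3 level rested on 72 UMIs in 4 of the 257 cells, 50 of them in 1 cell, and that of Egr4 on 81 UMIs in 13 cells. Their immediate-early sum was uneven, with a thinned median of 8 UMIs and a 90th percentile of 65.6. In the normal library the Suprabasal, Anal Canal and Rectum cells had medians of 4, 3 and 4.5 UMIs.

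The closest match in the normal library lay outside the authors' table. When the 610 normal barcodes without a name were clustered, a step added after the data were seen, 1 of 7 clusters (137 cells, numbered 2) was led by Pdk4, Egr4, Saa3, Angptl4 and Irs2. It held Il33 at 179 CPM (160.8 to 198.8), Saa3 at 87.5, Junb at 1888 and Egr4 at 97.2 CPM, each above its level in the wounded Regeneration cells. Fos was at 4396 CPM, Cxcl1 at 99.2 CPM, Mt1 at 7608 CPM and Plin2 at 1309 CPM. Of its 137 cells, 84 held a UMI of Il33, 137 of Junb, 42 of Egr4 and 9 of Saa3, and 1 held all 4, as did 0 of the 991 Regeneration cells. The 4 markers thus describe the cluster sums, and were hardly ever counted together in a single cell.

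Over 7816 genes, the Spearman correlation of its levels with those of Regeneration was 0.86, against 0.83 for normal Basal and 0.91 for Wound_Stress cells, which share the Regeneration library. Without the immediate-early genes and heat shock chaperones, over 7760 genes, these values were 0.86, 0.83 and 0.92. Other groups were as near over the 7816 genes. Wounded cells without a name were at 0.87, and wounded Suprabasal cells and all normal cells without a name at 0.85. Another unnamed normal cluster (98 cells, numbered 4) had Il33 at 197 CPM with Junb at 221 and Egr4 at 1.07 CPM, where Wound_Stress cells had 76.9 CPM of Junb and 0.67 of Egr4, and of the normal groups it correlated best with Wound_Stress (0.85). Its leading genes were of another kind and began with Mzb1, Igkc, Igha and Jchain, genes of plasma cells, with 11360 UMIs of Igkc, so this cluster held RNA of another cell type as well.

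These normal clusters were compared with each other like Regeneration and Wound_Stress. Over cluster 4, cluster 2 had 167 of 3285 tested genes at least 2-fold higher (5.08%) and 23 lower (0.7%). Of the 184 genes that were 2-fold higher in Regeneration over Wound_Stress and measured in both contrasts, 142 (77.2%) were also 2-fold higher in cluster 2 and 0 were lower, and these 142 were 85.0% of the 167. Of the genes 2-fold lower over Wound_Stress 7 were measured, and 3 of these were lower in cluster 2. Outside the immediate-early lists the count was 111 of 152 (73.0%). Il33 did not differ by 2-fold (log2 ratio -0.14, from -0.40 to 0.13). The clusters were picked after their levels had been seen. The wound, METACAM, the time since tamoxifen, the library and the Cell Ranger version cannot be told apart between the samples.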

How the data were processed

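Single-cell libraries were made with 10x 3' chemistry from sorted anorectal cells, 1 library for the normal and 1 for the wounded mice. What the authors deposited was a matrix of UMI counts for each barcode, not normalized, made with Cell Ranger 3.1.0 (normal) and 4.0.0 (wounded) on mm10 per the file headers. The authors also deposited 1 table per library of named cells with natural log values. Their exponentials minus 1 are whole numbers, while how they arose is not given in the sources used here. Seurat 3.2.2 is among the tools in the submitters' processing notes.

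Names were taken from these tables and counts from the matrices. The study kept barcodes with over 200 and under 5000 genes and under 25% mitochondrial UMIs, which left 5225 of 17216 wounded barcodes and 1548 of 2564 normal ones. UMIs were summed per name. Genes with at least 100 UMIs in both groups together were compared as a log2 ratio of CPM with an exact binomial interval, levels have an exact Poisson interval and shares an exact Clopper-Pearson interval, all at 95%. Ratios against 0 UMIs used 3 UMIs in place of the 0. Differing means at least 2-fold apart. Cells were thinned to 2000 UMIs for shares, sums per cell and correlations. Subclusters came from 2000 variable genes, 10 principal components, 15 neighbours and Leiden clustering at resolution 0.2 (scanpy 1.11.5, Python 3.11.15), as did clusters of barcodes without a name, which were added after the data were seen. No doublet caller was run.

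Named genes were the 4 markers, the 10 genes with the largest and smallest ratio in each contrast among those with at least 100 UMIs in the higher group, the 5 leading genes of each subcluster, and members of 32 lists. The members and lists were chosen with earlier results of these data known. The ratio and its interval were checked on simulated counts. Gene positions are from GENCODE M21 on GRCm38. Results for some genes are not reported here.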

Additional observations from a re-analysis of the deposited data

Results flagged for a closer look

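Il33 was also found among the barcodes left out by the filter on mitochondrial UMIs. The 11900 wounded barcodes with at least 25% mitochondrial UMIs held 246 Il33 UMIs, or 8.18 CPM (exact 95% Poisson interval 7.19 to 9.27), above the floor of 3 UMIs. The 1003 such barcodes of the normal library held 5 UMIs, or 3.93 CPM (1.28 to 9.17), so the intervals overlap. The level was far under the 134 CPM of Il33 in Regeneration cells, and its source was not tested.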

How the results depend on the processing

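Counts of differing genes moved most with the minimum number of UMIs. Over Wound_Stress, 782 genes were higher and 512 lower with a minimum of 20 UMIs, and 236 and 18 with a minimum of 500. Over the other 4 clusters, 2904 were lower with a minimum of 20, and 425 were higher and 630 lower with a minimum of 500. Genes lower than in Wound_Stress numbered 265 with cells weighted equally, 60 on the authors' whole numbers and 71 in cells under 10% mitochondrial UMIs. The other counts stayed within 1.5 times, but in cells with 5000 to 15000 UMIs 71 of the 148 genes lower than in Wound_Stress were among the 155. Shares in Regeneration cells thinned to 1000 and 4000 UMIs were 12.2% and 32.6% for Il33, 59.8% and 89.0% for Junb, and 4.14% and 9.53% for Egr4. Of 975 log2 ratios of 61 named genes under the alternatives, 768 lay within the interval of the reported ratio, 205 outside it and 2 reversed, both among cells with 5000 to 15000 UMIs: Ly6g6c over Wound_Stress (0.06) and Acer1 over the other 4 clusters (-0.58). The correlation of the immediate-early and cell cycle sums was -0.04 at 4000 UMIs against 0.02, and the cause of these shifts was not tested. Depth limits the shares of Il33 and Egr4 more than that of Saa3, which went from 1.82% to 2.49% between these depths. No paired analysis was possible because each condition is 1 library and no test was run.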

Other observations

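Squamous and posterior transcription factors were tested in part, since 7 of the 14 had too few UMIs over Wound_Stress. Over Wound_Stress 4 of 7 tested were at least 2-fold higher (4.88% of all genes) and 0 lower, among them Klf5, a factor of proliferating epithelia, at 87.7 against 17.8 CPM. Over the other 4 clusters 1 of 12 was higher (6.04%) and 7 lower (15.1%), 5 of the lower ones being among those not tested over Wound_Stress, and Klf5 was at 244 CPM in Basal and 400 CPM in Rectum cells. Gata3, a factor of stratified and gland epithelia, was at 142 CPM in Regeneration, 165 in Wound_Stress and 7.30 CPM in Rectum cells. Hoxa13, Hoxb13 and Hoxd13, which mark the posterior gut and anal region, had too few UMIs to be tested over Wound_Stress.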
